A study of Mus musculus with 6 samples.

Results

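The small heat shock proteins and their co-chaperone partner Bag3 were followed through myogenic differentiation and 4-phenylbutyric acid treatment of C2C12 cells, a mouse line of skeletal muscle myoblasts that withdraws from the cell cycle and fuses into myotubes when serum is lowered. The genes were taken by symbol from a table of RNA sequencing counts: Hspb1, Hspb2, Hspb3, Hspb6, Hspb7, Hspb8, Cryab and Bag3. All 8 were among the 43074 symbols of the table, and all 8 were among the 17433 genes with enough counts to be tested. The 6 libraries formed 3 groups of 2, all labelled wild type in genotype and given the same batch number. Day 0 cells were non-treated and had been grown in medium with 10% fetal bovine serum. The other groups were switched for 4 days to 5% horse serum, the differentiation medium, with DMSO, the vehicle, or with 1 mM 4-phenylbutyric acid (4-PBA), an aromatic fatty acid used as a chemical chaperone that also inhibits histone deacetylases. Day 4 therefore differed from day 0 in both time and medium, and no untreated day 4 culture or 4-PBA culture in growth medium was analysed here. The labels do not say whether the 2 libraries of a group came from separate cultures, so the p-values below measure only the spread between these libraries, which may be technical.

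Small heat shock proteins share the alpha-crystallin domain, assemble into oligomers and hold unfolding proteins in solution without using ATP. In muscle they bind desmin, actin, titin and filamin and are known to protect the sarcomere under heat and mechanical strain. Bag3 joins Hspb8 to the Hsc70 chaperone Hspa8 and its ubiquitin ligase Stub1, and this complex hands damaged filamin to autophagy at the Z-disc, a route called chaperone-assisted selective autophagy. Several family members are also textbook targets of the heat shock factor Hsf1, which binds inverted repeats of the letters GAA.

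RefSeq promoter windows on GRCm38.p6, each from 250 bases before to 50 bases after the start site, were matched by symbol for 6 of the 8 genes, and those of Cryab and Hspb2 were not used here. Hspb2, which rose strongly from day 0 to DMSO, and Cryab, which hardly moved, are thus missing. The windows shown are those of Hspb7 and Hspb3, which changed most, Hspb6, which fell, and Hspb1, Hspb8 and Bag3, which moved little. Searched on both strands, GAANNTTC, an inverted repeat of the kind bound by heat shock factors, was present in 5 of the 7 windows of these genes. Those 5 windows belong to 5 of the 6 genes, and 7.86% of all 32851 windows held a match. Capitals below mark GAANNTTC, the E-box CANNTG and the MEF2 motif. Where GAAGTTTC adjoins CAGATG in Hspb1 the capitals run together. The stretches for Hspb1, Hspb3, Hspb6 and Hspb7 end 1 base before the start site, and those for Hspb8 and Bag3 are 30 bases that hold their match. Both of these matches lie after the start site. The match of Hspb8 begins at base 3 and that of Bag3 at base 43, where it ends the window. Hspb6 has 2 windows in the table, and the window that holds the match is shown.
Hspb1, chr5:135887669-135887918, plus strand: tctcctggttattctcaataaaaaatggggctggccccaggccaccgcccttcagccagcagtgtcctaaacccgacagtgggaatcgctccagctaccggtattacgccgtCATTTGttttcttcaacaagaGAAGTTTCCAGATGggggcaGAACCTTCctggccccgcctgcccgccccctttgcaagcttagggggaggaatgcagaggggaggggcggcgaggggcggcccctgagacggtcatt
Hspb6, chr7:30553051-30553300, plus strand: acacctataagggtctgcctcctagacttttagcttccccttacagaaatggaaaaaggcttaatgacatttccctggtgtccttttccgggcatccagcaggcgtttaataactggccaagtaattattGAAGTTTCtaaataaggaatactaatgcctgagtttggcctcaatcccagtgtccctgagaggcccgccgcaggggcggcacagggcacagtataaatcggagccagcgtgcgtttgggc
Hspb3, chr13:113663677-113663926, minus strand: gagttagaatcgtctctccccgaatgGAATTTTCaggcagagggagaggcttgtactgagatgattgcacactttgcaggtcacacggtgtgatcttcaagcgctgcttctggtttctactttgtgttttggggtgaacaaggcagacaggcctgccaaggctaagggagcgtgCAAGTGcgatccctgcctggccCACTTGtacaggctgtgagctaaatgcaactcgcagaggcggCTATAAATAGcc
Hspb7, chr4:141420529-141420778, plus strand: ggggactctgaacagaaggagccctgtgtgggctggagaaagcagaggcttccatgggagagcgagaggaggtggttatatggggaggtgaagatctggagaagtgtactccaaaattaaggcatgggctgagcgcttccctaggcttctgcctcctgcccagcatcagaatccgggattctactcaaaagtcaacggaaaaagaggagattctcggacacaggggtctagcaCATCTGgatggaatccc
Hspb8, chr5:116422850-116422879, minus strand: cagcccagaagccaggaGAAGTTTCtaggc
Bag3, chr7:128523603-128523632, plus strand: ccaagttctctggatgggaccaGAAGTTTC
The same 8 letters, GAAGTTTC, stood in the windows of Hspb1, Hspb6, Hspb8 and Bag3, while 1.21% of all windows held them; this identity was seen only after the matches were listed. The window of Hspb3 held GAATTTTC, 2 E-boxes and the MEF2 match CTATAAATAG close to the start site, and 3.19% of all windows held a MEF2 match. The window of Hspb7 held an E-box and none of the other marked motifs. An E-box was found in 4 of the 7 windows (those of Hspb1, Hspb3, Hspb7 and Hspb8) and in 72.3% of all windows, so it is a common match. TTCNNGAA and the CArG box matched none of the 6, against 8.52% and 1.63% of windows. TATAAA was found for Hspb3, where it overlaps the MEF2 match, and for Hspb6, against 13.6% of windows. These are matches of letters, and binding was not measured.

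Markers of the labelled cell type were checked next. Total counts ranged from 47908926 to 74697397 per library. In the order day 0, DMSO and 4-PBA, the summed level of 7 myotube markers lay at 108.0 to 114, 5828 to 6262 and 5758 to 5870 CPM (counts scaled to library size and TMM factor). The myogenic regulator Myog rose by 5.19 ± 0.0460 (SE) on the log2 scale from day 0 to DMSO (edgeR's quasi-likelihood test with Benjamini-Hochberg adjustment, adjusted p = 3.18e-41). Over the same groups the sum of 4 markers of cycling cells lay at 1332 to 1358, 359.6 to 426 and 450 to 461 CPM. That of 4 markers of reserve or satellite-like cells lay at 89.6 to 89.9, 97.7 to 102 and 97.8 to 104 CPM. This sum joined opposite changes from day 0 to DMSO. Pax7, Cd34 and Spry1 were called higher by edgeR (log2 fold changes 1.80, 0.35 and 3.11), and Myf5 was called lower (-1.14). The summed markers of osteoblast-like, adipocyte-like, endothelial, blood and neural cells stayed at or below 3.35 CPM in every library, and Sox10 was at 0 in all 6. In such bulk libraries, fewer cells of a kind and less RNA per cell cannot be told apart, and the part of the change in cell state in each result below was not tested.

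Between day 0 and day 4 in DMSO, the muscle-enriched members Hspb2, Hspb3 and Hspb7 rose strongly, Hspb6 fell, and the abundant members Hspb1 and Cryab were found close to their day 0 level. From day 0 to day 4 with DMSO, Hspb2, Hspb3, Hspb7 and Bag3 were called higher at an adjusted p under 0.05, and Hspb6 was called lower. That is 4 of 8 higher, where 33.8% of all tested genes were called higher, and 1 of 8 lower, where 32.6% of all tested genes were called lower. The share called was thus of the order seen in all genes in this comparison. The median log2 fold change of the 8 was 0.08, beside 0.02 for all tested genes. What set the members apart from each other was size: among 17433 genes ordered by the size of this change, Hspb7 stood at place 105 and Cryab at place 17077.

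**Figure D1:**
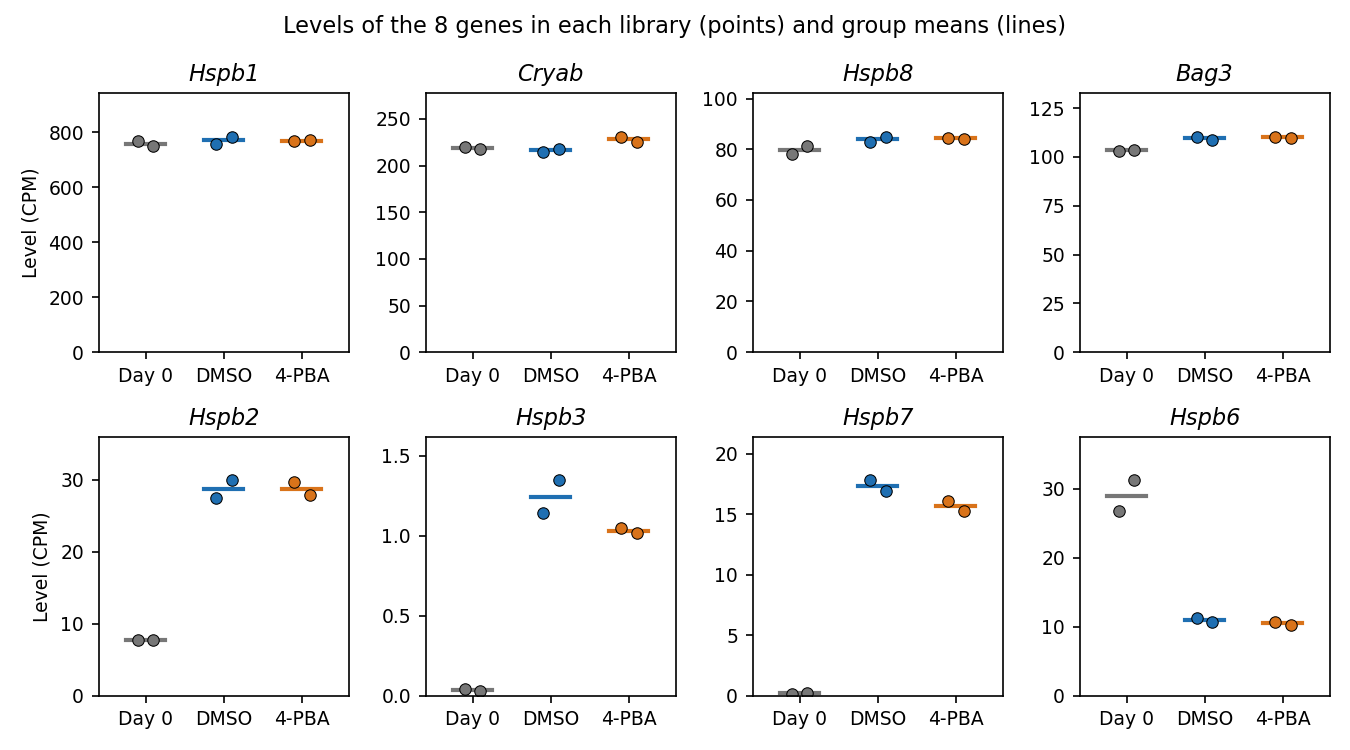
Level of each of the 8 genes in CPM (vertical axis, own range for each gene, starting at 0) in the 2 libraries of day 0, day 4 DMSO and day 4 4-PBA; points are libraries and lines are group means. Hspb2, Hspb3 and Hspb7 lie higher in all 4 day 4 libraries than at day 0, Hspb6 lies lower, and Hspb1 stays between 749 and 783 CPM throughout.

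Hspb7, a cardiac and skeletal muscle member that binds filamin C and restrains sarcomeric actin assembly, showed the widest change. Its level was 0.144 and 0.228 CPM in the day 0 libraries (7 and 16 counts), 17.8 and 16.9 CPM in DMSO, and 16.1 and 15.3 CPM in 4-PBA. Every day 4 library thus lay far above both day 0 libraries. Hspb7 rose by 6.47 ± 0.169 (SE) on the log2 scale from day 0 to DMSO (edgeR adjusted p = 2.25e-27). As a ratio of summed counts scaled for library size, 2379 counts with DMSO against 23 at day 0 gave 89.5, with an exact 95% counting interval from 59.5 to 141 that covers counting error only. Of the 6 genes with a promoter window, Hspb7 was the only gene without GAANNTTC. Hspb3, which has the motif, rose as well, and a link between motif and change was not tested.

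Hspb3 and Hspb2 are muscle-enriched members that form a hetero-oligomer with each other, and MyoD is known to induce both during differentiation. Hspb3 was hardly detected at day 0, with 2 counts in each library (0.0412 and 0.0285 CPM). It reached 1.14 and 1.35 CPM in DMSO (72 and 100 counts) and 1.05 and 1.01 CPM in 4-PBA (65 and 63 counts). The day 4 libraries did not overlap with day 0, but this stayed the least abundant of the 8 genes. The ratio of summed scaled counts, 172 with DMSO against 4 at day 0, was 37.2 with an exact 95% counting interval from 14.3 to 138, and the edgeR adjusted p for Hspb3 was 6.05e-11.

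Hspb2 was already present in proliferating cells. Its libraries held 7.70 and 7.71 CPM at day 0, 27.4 and 30.0 CPM in DMSO and 29.7 and 27.9 CPM in 4-PBA. The 2 day 4 groups overlapped, and both lay above day 0. Hspb2 rose 3.73-fold with DMSO (1.90 ± 0.0766 SE on the log2 scale, edgeR adjusted p = 9.30e-22).

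Hspb2 and Cryab are neighbours on opposite strands in the GENCODE M21 annotation, and their exons overlap there. The libraries came from a directional kit, but whether the counting used strand is not given in the sources used here, so the separate values of Hspb2 and Cryab are uncertain to the extent of shared reads. Their values moved differently all the same. Cryab, the alpha-B crystallin that chaperones desmin and titin, had 219.8 and 218.0 CPM at day 0, 215 and 218 CPM in DMSO, and 231 and 225 CPM in 4-PBA. Both DMSO libraries lay just below both day 0 libraries, and the difference was -0.017 ± 0.0313 (SE) on the log2 scale (edgeR adjusted p = 0.650), with a 95% interval from -5.45% to 3.28%. Per kilobase of longest transcript, the level of Cryab was 19.8 and 19.6 times that of Hspb2 in the day 0 libraries, 5.42 and 5.03 times in DMSO and 5.38 and 5.59 times in 4-PBA. The ratio of the neighbours therefore fell in all 4 day 4 libraries, with Hspb2 as the gene that moved.

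Hspb6 moved the other way. This member is phosphorylated by cyclic nucleotide-dependent kinases and is best known in smooth and cardiac muscle. It stood at 26.7 and 31.2 CPM at day 0, 11.2 and 10.7 CPM in DMSO and 10.7 and 10.3 CPM in 4-PBA. All day 4 libraries lay below both day 0 libraries. Hspb6 fell by 1.41 ± 0.0803 (SE) on the log2 scale with DMSO (edgeR adjusted p = 2.12e-17), a change of -62.3%. In GENCODE M21 exons of Hspb6 overlap those of Proser3 and Lin37 on the opposite strand, so its value is also uncertain. Proser3 was lower as well, with 11.4 and 10.00 CPM at day 0 against 4.79 and 5.28 CPM in DMSO (log2 fold change -1.08 ± 0.116 SE, edgeR adjusted p = 3.03e-10). Lin37 lay at 10.2 and 10.1 CPM at day 0 and 9.16 and 10.4 CPM in DMSO, and was not called (edgeR adjusted p = 0.684). The part of reads shared with either neighbour in the fall of Hspb6 was not tested.

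The stress-inducible, widely expressed members barely moved with differentiation. Hspb1, a phosphorylation-regulated chaperone of actin filaments, had 768 and 749 CPM at day 0, 756 and 783 CPM in DMSO and 766 and 770.1 CPM in 4-PBA. The groups overlapped, and the difference of DMSO from day 0 was 0.022 ± 0.0283 (SE) on the log2 scale (edgeR adjusted p = 0.516). The 95% interval of that difference, from -2.45% to 5.65%, bounds it closely. Hspb8, the partner of Bag3, had 78.2 and 81.3 CPM at day 0, 82.9 and 85.0 CPM in DMSO and 84.5 and 84.0 CPM in 4-PBA. Both DMSO libraries lay above both day 0 libraries by a small margin, and the difference of 0.074 ± 0.0399 (SE) on the log2 scale was not called (edgeR adjusted p = 0.105, 95% interval -0.528% to 11.3%).

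Bag3 was called higher, but by a few percent only. It had 103.3 and 103.7 CPM at day 0, 110.4 and 108.5 CPM in DMSO and 110.3 and 110.0 CPM in 4-PBA. The day 4 libraries did not overlap with day 0. The difference from day 0 to DMSO was 5.81% (0.081 ± 0.0360 SE on the log2 scale, edgeR adjusted p = 0.0460), with a 95% interval from 0.573% to 11.3%. This call was lost in 14 of 16 alternative analyses, stricter thresholds included, whose adjusted p for Bag3 ranged from 0.0388 to 0.188. Leaving out a single library ended it in every case but DMSO replicate 2 (adjusted p = 0.0388), with adjusted p from 0.0541 without 4-PBA replicate 1 to 0.178 without day 0 replicate 1. Its size is close to that of Hspb8, and the interval of Hspb8 includes both 0 and the value of Bag3. Per kilobase of longest transcript the 2 partners were nearly equal in level, with a Hspb8 to Bag3 ratio of 1.07 and 1.11 at day 0, 1.06 and 1.10 in DMSO, and 1.08 in both 4-PBA libraries.

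**Figure D2:**
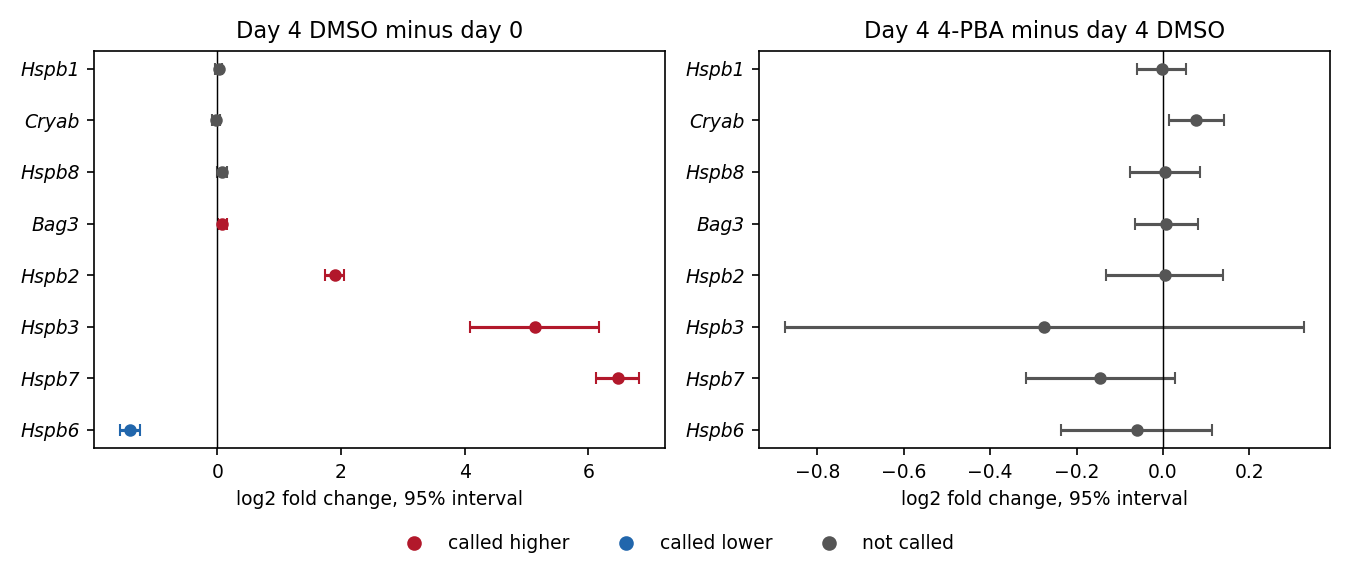
Log2 fold change of each gene from edgeR with its 95% interval, for day 4 DMSO minus day 0 (left) and day 4 4-PBA minus day 4 DMSO (right); the horizontal axes have different ranges. On the left Hspb7 (6.47), Hspb3 (5.13, fitted on 2 counts in each day 0 library) and Hspb2 (1.90) stand to the right and Hspb6 (-1.41) to the left of 0, and on the right no gene was called.

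Whether 4-PBA altered the family was asked by setting the 2 day 4 groups side by side. None of the 8 genes was called by edgeR in either direction, where 2.13% of all tested genes were called higher and 2.78% of all tested genes were called lower. With so few calls among all genes, 0 of 8 is also what a share near that of all genes would give. At an unadjusted p under 0.05, 1 of the 8 genes passed, Cryab, beside 16.7% of all tested genes. DESeq2's Wald test and limma-voom called 0 of the 8 as well. Of the 8 differences, 4 were positive and 4 negative, with a median of 0.00065 on the log2 scale beside 0.0021 for all tested genes.

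For the well-covered members the intervals around these 4-PBA differences were narrow. The difference of 4-PBA from DMSO was -0.193% for Hspb1 (95% interval -4.09% to 3.86%, edgeR adjusted p = 0.979). For Bag3 it was 0.574% (-4.38% to 5.78%, adjusted p = 0.947), and for Hspb8 it was 0.332% (-5.13% to 6.11%, adjusted p = 0.973). In each of these 3 genes both 4-PBA libraries lay inside the range of the DMSO libraries. For Hspb2 the difference was 0.283% (-8.68% to 10.1%, adjusted p = 0.985), and for Hspb6 it was -4.11% (-15.1% to 8.29%, adjusted p = 0.813). The libraries of both groups overlapped in Hspb2 and Hspb6 too, and intervals this wide leave room for changes of several percent.

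In Cryab, Hspb7 and Hspb3 the 2 libraries of each day 4 group did not overlap, although none was called. The share of all tested genes whose day 4 libraries separate in this way is not given here. With only 2 libraries per group, such an order is frequent even without a difference, so these orders are description only. Both 4-PBA libraries of Cryab lay above both DMSO libraries, a difference of 5.5% (0.077 ± 0.0313 SE on the log2 scale, edgeR adjusted p = 0.175, 95% interval 0.951% to 10.2%). Both 4-PBA libraries of Hspb7 lay below both DMSO libraries, a difference of -9.57% (edgeR adjusted p = 0.415, 95% interval -19.8% to 1.92%). The same order held for Hspb3, with a difference of -17.3% (edgeR adjusted p = 0.731, 95% interval -45.5% to 25.4%). With 63 to 100 counts per day 4 library, Hspb3 was too thinly covered for a difference of that size to be detectable. Beside these values, 2 of 7 myotube markers were called lower with 4-PBA than with DMSO (Mymk and Acta1). Of all tested genes, 2.78% were called lower. None of the 4 markers of cycling cells was called (Mki67, Top2a, Ccnb1 and Cdk1). In all 4 both 4-PBA libraries lay above both DMSO libraries, with a median difference of 0.21 on the log2 scale. The share of all tested genes with such an order is again not given, so this order too is description only. The DMSO libraries themselves differed, and DMSO replicate 1 lay nearer to 4-PBA in all 4. Cdk1, for example, had 66.2 and 54.4 CPM in DMSO and 67.3 and 68.3 CPM in 4-PBA. The part of either marker set in the values of Hspb7, Hspb3 and Cryab was not tested.

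Against day 0, the 4-PBA group gave calls for the same 5 genes as DMSO did, 4 of 8 higher (33.2% of all tested genes were called higher) and 1 of 8 lower (32.4% of all tested genes were called lower). The 2 comparisons share the day 0 libraries, so their values are given side by side without a measure of likeness. On the log2 scale, Hspb7 rose by 6.33 ± 0.171 (SE) with 4-PBA and 6.47 with DMSO. Hspb2 rose by 1.90 ± 0.0769 and 1.90, and Hspb6 fell by 1.47 ± 0.0814 and 1.41. For Hspb3 the ratio of scaled counts was 30.6 (exact 95% counting interval 11.7 to 114) with 4-PBA and 37.2 with DMSO. Bag3 was 6.41% above day 0 with 4-PBA (edgeR adjusted p = 0.0290) and 5.81% above it with DMSO, and 8 of 16 alternative analyses lost the 4-PBA call. It was lost without either day 0 library or either 4-PBA library (adjusted p from 0.0894 to 0.132). Cryab and Hspb8 stood 4.25% and 5.58% above day 0 with 4-PBA and were not called (edgeR adjusted p = 0.0923 and 0.0856).

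Levels can be compared between genes only per transcript length, here CPM per kilobase of the longest GENCODE transcript. At day 0 the order was Hspb1 (815 ± 14.5, SD, n = 2), Cryab (196 ± 1.13), Hspb8 (43.9 ± 1.22), Bag3 (40.4 ± 0.117), Hspb6 (14.6 ± 1.60), Hspb2 (9.96 ± 0.010), Hspb7 (0.0672) and Hspb3 (0.0446). The ranges of Hspb7 and Hspb3 overlapped at day 0, and no other neighbours in that order did. With DMSO the order became Hspb1 (828 ± 20.9), Cryab (194 ± 2.10), Hspb8 (46.2 ± 0.797), Bag3 (42.7 ± 0.528), Hspb2 (37.1 ± 2.33), Hspb7 (6.27 ± 0.229), Hspb6 (5.54 ± 0.185) and Hspb3 (1.59 ± 0.187), with no overlap between neighbours. The first 4 places were thus the same at both times, while Hspb2 and Hspb7 passed Hspb6. The order with 4-PBA was the same as with DMSO. With the total length of a gene's exons in place of the longest transcript the order was unchanged, but Hspb8 and Bag3 then overlapped at day 0 and with DMSO.

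**Figure D3:**
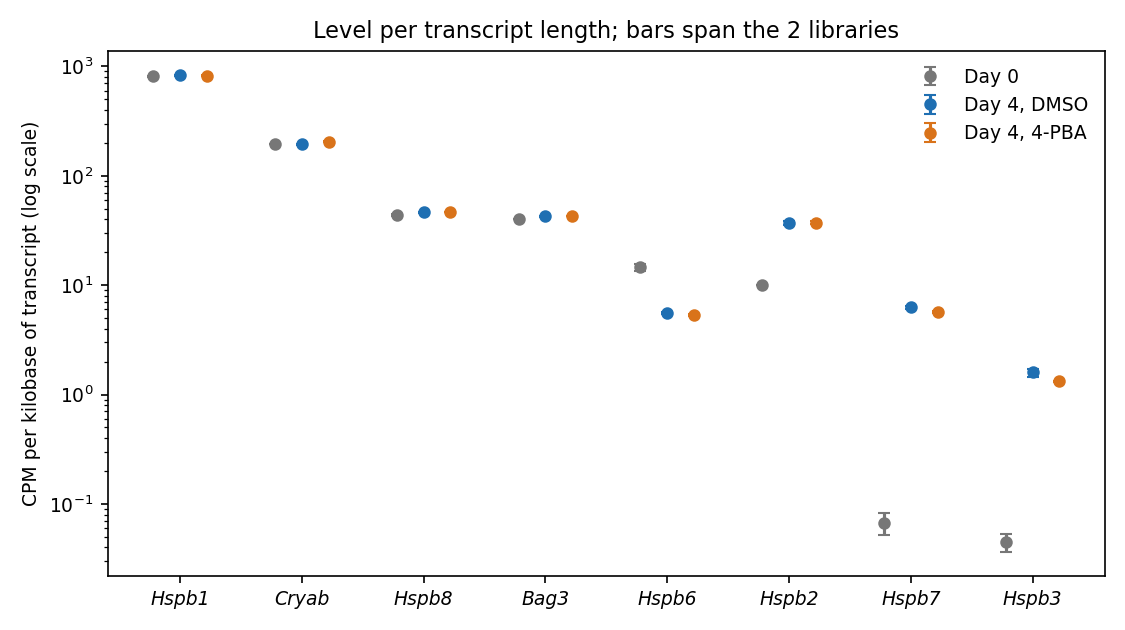
Level per kilobase of longest transcript (CPM per kilobase, log scale) for the 8 genes in the 3 groups; points are means and bars span the 2 libraries. Hspb1 stays near 815 to 828 and Cryab near 194 to 204, while Hspb2, Hspb7 and Hspb3 are higher and Hspb6 is lower at day 4.

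Hspb1 dominated the family at each time. It made up 72.8% of the summed level per kilobase of the 8 genes at day 0, 71.3% with DMSO and 70.6% with 4-PBA, and Cryab made up 17.5%, 16.7% and 17.5%. The share of Hspb2 was 0.889% at day 0 and 3.20% with DMSO. In CPM, the 8 genes summed to 1204 and 1191 in the day 0 libraries, 1222 and 1254 in DMSO and 1249.7 and 1244 in 4-PBA. The large fold changes of Hspb7, Hspb3 and Hspb2 thus added little to the total, since these genes were rare beside Hspb1.

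The genes most like each member were found by the root mean square difference of log2 CPM, centred on the mean of the 6 libraries, among tested genes with a mean of at least 5 CPM. Those nearest to Hspb7 were Lmod2 (0.122) and Tekt5 (0.122), and those nearest to Hspb2 were Adgrl3 (0.0454) and Trp53inp2 (0.0471). Lmod2, a nucleator of thin filament actin, had 0.535 and 0.698 CPM at day 0 and 50.8 and 61.2 CPM in DMSO. Those nearest to Hspb3 were Lrrc39 (0.109) and Mamdc2 (0.125), and with candidates from 1 CPM up they were Slc6a2 (0.0810) and A730056A06Rik (0.108). Those nearest to Hspb6 were Steap1 (0.0494) and Aprt (0.0543). Members with almost flat profiles had close matches by construction, since most flat genes resemble each other: Npc1 (0.00591) and Fkbp10 (0.00754) for Bag3, Atp5l (0.00753) and Bptf (0.0132) for Hspb1, Htatsf1 (0.0115) and Tsnax (0.0117) for Hspb8, and Vapb (0.0135) and Uri1 (0.0153) for Cryab. Over 6 libraries in 3 groups, such likeness describes these libraries only.

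The other genes listed with both families were sparse or moved in either direction. Of 4 further genes listed with the small heat shock proteins, Cryaa, Hspb9 and Odf1 were too low to be tested. Hspb11 was listed by its symbol, and the shared domain was not checked. It was 0.21 ± 0.0897 (SE) higher on the log2 scale with DMSO than at day 0 (edgeR adjusted p = 0.0351), a call lost in 7 of 16 alternative analyses. Among 5 other Bag family genes, Bag1 and Bag5 rose with DMSO, Bag2 and Bag4 fell, and Bag6 was not called. Of all tested genes, 33.8% were called higher there and 32.6% lower, so these counts show nothing particular to the Bag family. Bag1, which couples Hsp70 chaperones to the proteasome, had 173 and 172 CPM at day 0 and 234 and 245 CPM in DMSO (log2 fold change 0.47 ± 0.0322 SE, edgeR adjusted p = 2.92e-15). Bag4 had 23.0 and 23.3 CPM at day 0 and 12 and 12.4 CPM in DMSO (log2 fold change -0.92 ± 0.0809 SE, edgeR adjusted p = 2.39e-12). None of the 5 was called between 4-PBA and DMSO by edgeR, and their median difference was 0.05 on the log2 scale. Of all tested genes, 2.13% were called higher in that comparison and 2.78% lower.

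Of 20 partners of Bag3 and the small heat shock proteins in chaperone-assisted selective autophagy, 7 rose, 8 fell and 5 were not called from day 0 to DMSO, with a median log2 fold change of -0.06. Those shares are near the 33.8% and 32.6% of all tested genes called higher and lower, so the counts show nothing particular to the partners. The chaperone Hspa8 had 2652 and 2676 CPM at day 0 and 1736 and 1626 CPM in DMSO, a fall of 0.66 on the log2 scale (edgeR adjusted p = 1.02e-20). Its ubiquitin ligase Stub1 fell by 0.51, and the autophagy receptor Sqstm1 fell by 0.29. The client filamin Flnc, in contrast, had 626 and 618 CPM at day 0 and 1292 and 1270 CPM in DMSO, a log2 fold change of 1.04 (edgeR adjusted p = 2.31e-27). Synpo2, whose product binds Bag3 and tethers the autophagosome, rose by 2.40 on the log2 scale, its relative Synpo by 1.59 and the autophagosome protein Map1lc3a by 2.29. Hspa8, Stub1, Sqstm1, Flnc and Synpo2 were picked out after their values were seen.

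Between 4-PBA and DMSO, 1 of those 20 partners was called higher and 1 lower. Of all tested genes 2.13% were called higher and 2.78% lower, so these counts show nothing particular to the partners. Synpo2 had 183 and 205 CPM in DMSO and 158 and 157 CPM in 4-PBA, a fall of 0.30 ± 0.0405 (SE) on the log2 scale (edgeR adjusted p = 2.62e-05). Synpo had 198 and 199.9 CPM in DMSO and 223 and 212 CPM in 4-PBA, a rise of 0.13 ± 0.0351 (SE) on that scale (edgeR adjusted p = 0.0234). The related genes Synpo2 and Synpo thus went in opposite directions. The call of Synpo was lost without either 4-PBA library. Leaving out DMSO replicate 1 gave 2 partners called lower, and leaving out DMSO replicate 2 gave 3.

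A list of 21 heat shock factors and other Hsf1 targets, of which Hspa8, Hspa1a, Hspa1b and Dnajb1 are also among the partners, had 17 genes that fell (32.6% of all tested genes did), 1 that rose and 3 not called from day 0 to DMSO, with a median of -0.47 on the log2 scale. The mitochondrial chaperonin gene Hspd1 had 737 and 765 CPM at day 0 and 251 and 234 CPM in DMSO, a fall of 1.63 (edgeR adjusted p = 5.84e-28). The cochaperone gene Fkbp4 had 289 and 282 CPM at day 0 and 141 and 137 CPM in DMSO, a fall of 1.04 (edgeR adjusted p = 9.70e-25). Hsf1 itself, also named after its value was seen, fell by 0.33, and the gene that rose was Serpinh1, the collagen chaperone (0.41). Hspb1, Hspb8, Cryab and Bag3 did not share that fall: the lowest of their 4 differences was -0.017 on the log2 scale. This was not particular to them, since Hspa1a, Hsf2 and Hsf4, the 3 listed genes not called, had differences of 0.36, 0.016 and 0.086. Hspb6, which has a window with the same GAAGTTTC as Hspb1, Hspb8 and Bag3, fell by 1.41. A link between this motif and the changes was not tested. None of the 21 was called between 4-PBA and DMSO by edgeR, where 2.13% of all tested genes were called higher and 2.78% lower. The smallest edgeR adjusted p were 0.0848 for Ahsa2 and 0.136 for Fkbp4. Hspa1a and Hspa1b are nearly identical in sequence, so their separate counts are uncertain.

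The RNA of filament and sarcomere proteins that small heat shock proteins are known to hold went mostly up with differentiation. Of these 10 genes, 9 rose (33.8% of all tested genes did) and Vim fell, with a median of 1.64 on the log2 scale. Synm, among those that rose, lay only between 0.165 and 0.607 CPM in all libraries. Actc1, the cardiac actin gene, had 4.16 and 4.52 CPM at day 0 and 379.9 and 389 CPM in DMSO. Acta1, the skeletal actin gene, had 39.1 and 37.3 CPM at day 0 and 1697 and 1758 CPM in DMSO. The rises ranged from 2.06-fold for Flnc to 97.8-fold for Actn2, both named after their values were seen, beside 3.73-fold for Hspb2 and 88.9-fold for Hspb7. Between 4-PBA and DMSO all 10 differences were negative, with a median of -0.10, and 5 genes were called lower, where 2.78% of all tested genes were: Ttn, Actc1, Ldb3, Des and Acta1. In the same comparison 5 of 7 myotube markers had a negative difference (Acta1 is in both lists) and all 4 markers of cycling cells a positive one, and their part in the values of the clients was not tested. Ttn had 2614 and 2691 CPM in DMSO and 2176 and 2207 CPM in 4-PBA, a fall of 0.28 ± 0.0263 (SE) on the log2 scale (edgeR adjusted p = 1.28e-08). Actc1 fell by 0.22 (adjusted p = 1.64e-05), Ldb3 by 0.27 (4.29e-05), Des by 0.11 (0.00881) and Acta1 by 0.09 (0.0450), and the call of Acta1 was lost in 11 of 16 alternative analyses. Without either 4-PBA library, 3 of the 10 were called.

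Of 7 kinase genes of the stress-activated pathway that phosphorylates Hspb1 and its relatives, 5 were tested. From day 0 to DMSO, Mapkapk2 and Mapk12 rose by 0.37 and 0.18 on the log2 scale, Mapk11 and Mapk14 fell by 0.54 and 0.37, and Mapkapk5 was not called. Of all tested genes, 33.8% were called higher there and 32.6% lower, so these counts show nothing particular to the kinases. Mapk14 was the only kinase of the 5 called between the day 4 groups, with 78.6 and 76.7 CPM in DMSO and 84.7 and 87.3 CPM in 4-PBA (log2 fold change 0.15 ± 0.0392 SE, edgeR adjusted p = 0.0192). That call was lost without DMSO replicate 2 or without either 4-PBA library. Of all tested genes, 2.13% were called higher and 2.78% lower between the day 4 groups. Phosphorylation of the small heat shock proteins was not measured.

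**Figure D4:**
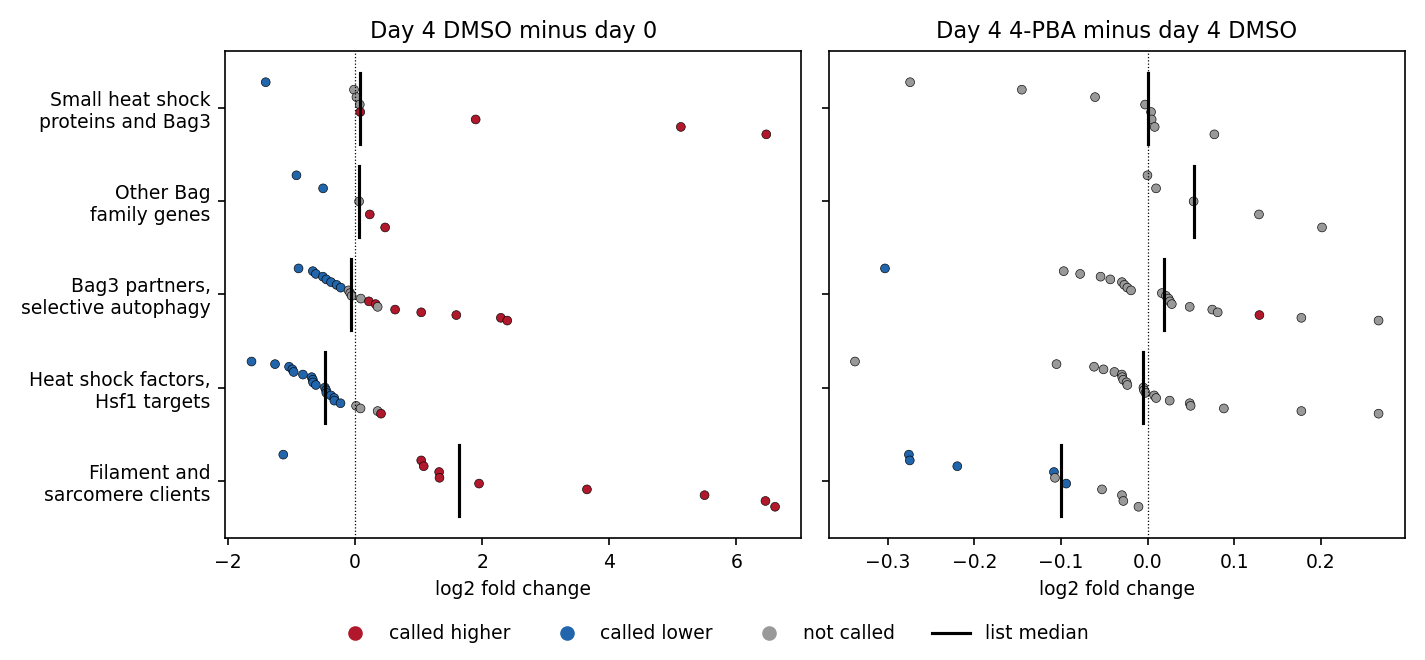
Log2 fold change of each tested gene (points) in the 8 genes and in 4 related lists, for day 4 DMSO minus day 0 (left) and day 4 4-PBA minus day 4 DMSO (right, narrower axis); black bars are list medians. On the left the Hsf1 list centres on -0.47 and the filament and sarcomere clients on 1.64. On the right only 1 Bag3 partner higher, 1 lower and 5 clients lower were called. Of all tested genes 2.13% were called higher there and 2.78% lower.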

How the data were processed

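RNA sequencing counts were analysed for 6 libraries of C2C12 cells. The deposited table holds whole-number counts per gene symbol, with 1 column per library, neither normalised nor pooled by the authors as far as the values show. Per the labels' protocols, libraries were made from DNase-treated total RNA with a directional kit. The genome build was GRCm39, per the submitters' processing notes. The aligner, counting tool, annotation and use of strand are not given in the sources used here. The annotation used for transcript length and overlaps (GENCODE M21, GRCm38) is of another build, so no coordinates of the counted genes are given, and the promoter windows are RefSeq's own on GRCm38.p6.

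Genes were filtered with filterByExpr, scaled with TMM and fitted over all 6 libraries with edgeR 4.0.16 (robust glmQLFit, quasi-likelihood F test) in R 4.3.3, with Benjamini-Hochberg adjustment over 17433 genes and calls at an adjusted p under 0.05. The standard error (SE) is the log2 fold change divided by the square root of F, and 95% intervals use its t quantile. The 2 libraries of each group differed beyond sampling noise (chi-square per degree of freedom 3.77, 6.64 and 5.34 at day 0, with DMSO and with 4-PBA), and the common biological coefficient of variation was 3.74%. The steps were tested on simulated data.

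The 8 genes and all lists were chosen with earlier results of these data known. Named are the 8 genes, from each list the 2 genes of smallest adjusted p in either of the first 2 comparisons, all genes of short lists, the 2 genes most like each member and 5 markers; a few others are named where a count is small or where the text says so. Alternatives were DESeq2 1.42.0 size factors and Wald test, limma-voom (limma 3.58.1), library size only, other filters, fits of 4 libraries, a replicate block, stricter thresholds and leaving out each library. Python 3.11.15 and matplotlib 3.10.9 drew the figures.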

Additional observations from a re-analysis of the deposited data

How the results depend on the processing

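Each result for the 8 genes was recomputed under 16 alternatives. Hspb2, Hspb3, Hspb6 and Hspb7 kept their direction in both comparisons with day 0 under all 16 (from day 0 to DMSO, log2 fold changes of 1.83 to 1.96, 4.86 to 5.36, -1.51 to -1.28 and 6.24 to 6.90), and no gene of the 8 was called between 4-PBA and DMSO under any (lowest adjusted p 0.105, Cryab). With a replicate block, 3 genes were called higher from day 0 to DMSO, since Bag3 was no longer called (edgeR adjusted p = 0.0543), and 4 from day 0 to 4-PBA; no other call among the 8 changed. Deviations of same-numbered libraries correlated at -0.028, -0.0031 and -0.012 across all tested genes, so no pairing by replicate number was seen. Genes with few counts weigh as much as others in these values, which therefore cannot decide whether the libraries were paired. Against day 0, 4-PBA also gave a call for Cryab in 3 alternatives (lowest adjusted p 0.0274) and for Hspb8 in 1 (0.0426). Differences near 0 changed sign, and the cause was not tested. For Hspb1 from day 0 to DMSO the log2 difference was -0.0064 with library size only and -0.0051 to 0.049 with a library left out. For Hspb1 between 4-PBA and DMSO it was 0.00017 with DESeq2 size factors, 0.0066 with library size only, 0.00012 with the DESeq2 Wald test and -0.029 to 0.024 with a library left out. The ranges with a library left out were -0.058 to 0.072 for Hspb2, -0.013 to 0.024 for Hspb8 and -0.0033 to 0.020 for Bag3. Alternatives for the related lists were chosen after seeing the data. Counting error weighs most on Hspb3 and the day 0 level of Hspb7, and also on Hspb2 at day 0 (374 and 541 counts) and Hspb6 at day 4 (640 to 795 counts per library).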
